A study of Homo sapiens with 9 samples.

Results

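The mRNAs of the HSP90 family were examined exon by exon in the eCLIP data of MDH2, the mitochondrial malate dehydrogenase. The members are the 3 genes HSP90AA1, HSP90AB1 and HSP90B1, of 35309 identifiers in the deposited table, and all of their exon and intron windows were taken, which gave 1797 windows of 15767969. The cells were Huh7, a human hepatoma line, and no other treatment is labelled for any group. They were cross-linked with UV light, which joins proteins to the RNA that they touch, and the data comprise 3 MDH2 IP libraries, 3 size-matched input (SMI) libraries and 3 libraries of an IP with isotype-matched IgG (IgG IP). The SMI is a part of the same kind of lysate that was put aside before the IP and cut from the gel in the same way, so it shows which RNAs run there without the antibody. The IP libraries went through more PCR cycles than the SMI, and a single cell line was used.

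HSP90 proteins are molecular chaperones that bind ATP and help kinases, steroid receptors and many other clients to reach their active fold. HSP90AA1 encodes the heat-inducible cytosolic form and HSP90AB1 the cytosolic form made under most conditions, while HSP90B1 encodes GRP94, the form of the endoplasmic reticulum (ER), which folds secreted and membrane proteins. Each protein has an ATP-binding domain, a middle domain and a dimerization domain, and a linker rich in glutamate and lysine joins the ATP-binding domain to the middle domain. HSP90AA1 lies on GRCh38 at chr14:102080742-102139699 on the minus strand, HSP90AB1 at chr6:44246166-44253888 on the plus strand and HSP90B1 at chr12:103930107-103953931 on the plus strand. The mRNA models have 5′UTRs of 59, 95 and 106 nt, coding sequences of 2199, 2175 and 2412 nt and 3′UTRs of 970, 285 and 264 nt, in the order HSP90AA1, HSP90AB1 and HSP90B1. Windows of a first exon that lay upstream of the start of its mRNA model were counted with the 5′UTR. The encoded residues of HSP90AA1 and HSP90AB1 are 86.7% identical, and those of HSP90B1 are 49.8% identical to HSP90AA1 and 50.7% identical to HSP90AB1.

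The stretches that encode the linker carried enriched windows on all 3 mRNAs, on HSP90AA1 a single one that was lost without any of several libraries. These stretches are shown here in pairs aligned by codon, with bases that are the same in both sequences of a pair in capitals. The first pair is the HSP90AA1 window at chr14:102084819-102084868, minus strand, codons 265 to 281, and the HSP90AB1 codons 257 to 273, with 32 of 50 bases identical.
HSP90AA1: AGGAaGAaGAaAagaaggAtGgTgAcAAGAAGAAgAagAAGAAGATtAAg
HSP90AB1: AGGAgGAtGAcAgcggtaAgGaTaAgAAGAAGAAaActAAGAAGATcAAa
The second pair is the HSP90AB1 window at chr6:44250331-44250380, plus strand, codons 230 to 246, and the HSP90B1 codons 293 to 309, with 36 of 50 bases identical.
HSP90AB1: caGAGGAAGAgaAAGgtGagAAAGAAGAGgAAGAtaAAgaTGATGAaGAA
HSP90B1: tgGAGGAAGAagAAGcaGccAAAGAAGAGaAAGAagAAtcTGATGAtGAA

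The files give the number of cross-link sites per window of 50 nt, with a new window every 20 nt along an exon or intron, so that a site can enter several overlapping windows. In a subset of windows that do not overlap, no site counts more than once, and sites between these windows are left out. Their counts per library came to 1985935 to 3183081 for MDH2 IP, 2796754 to 3295322 for SMI and only 545598 to 985346 for IgG IP. The summed level of 10 hepatocyte markers was 6075 to 8068 CPM (counts scaled to a fixed library total) in MDH2 IP, 5679 to 7347 in SMI and 2532 to 4885 in IgG IP, while that of 7 markers of other cells was at most 26.3 CPM in any library. Nothing in the labels says that replicates came from separate cultures, so p-values measure the spread between these libraries, which may be technical. All levels are shares of a library's own counts, so they carry no information on the amount of RNA that an IP recovered.

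HSP90AB1 and HSP90B1 took a larger share of the cross-link sites in MDH2 IP than in either control, and HSP90AA1 a larger share than in IgG IP. HSP90AB1, the constitutive cytosolic form, had normalised levels of 789, 662 and 780 CPM in MDH2 IP replicates 1, 2 and 3, of 366, 372 and 422 CPM in SMI and of 465, 262 and 367 CPM in IgG IP. All 3 MDH2 IP libraries were above all 6 control libraries. The log2 fold change was 0.92 (SE 0.13) over SMI, with an adjusted p of 0.00149 by edgeR's quasi-likelihood test over all genes, and 1.07 (SE 0.21) over IgG IP, with an adjusted p of 0.0133 by the same edgeR test. HSP90B1, the ER form, had 1195, 1550 and 586 CPM in MDH2 IP, 413, 639 and 271 CPM in SMI and 494, 592 and 279 CPM in IgG IP. Its replicate 3 was the lowest library of each group, so that the groups overlapped, although MDH2 IP was above the control of the same number in every case. Its log2 fold change was 1.32 (SE 0.39) over SMI, with an edgeR adjusted p of 0.0291, and 1.34 (SE 0.37) over IgG IP, with an edgeR adjusted p of 0.0396. The call of HSP90B1 over SMI was lost without MDH2 IP replicate 1, MDH2 IP replicate 2, SMI replicate 1 or SMI replicate 3, where edgeR's adjusted p was 0.0822, 0.0806, 0.105 and 0.0699. Over IgG IP it was lost without MDH2 IP replicate 1 or 2 or without any IgG IP library, with edgeR adjusted p-values between 0.0548 and 0.112, and that of HSP90AB1 without MDH2 IP replicate 1 (edgeR adjusted p of 0.0591).

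HSP90AA1, the inducible form, had 483, 292 and 668 CPM in MDH2 IP, 202, 136 and 385 CPM in SMI and 254, 120 and 249 CPM in IgG IP. MDH2 IP and SMI overlapped, since SMI replicate 3 was above MDH2 IP replicate 2, while MDH2 IP did not overlap with IgG IP. Over SMI its log2 fold change of 0.96 (SE 0.39) did not pass the test, with an edgeR adjusted p of 0.0881, while that over IgG IP was 1.25 (SE 0.33), with an edgeR adjusted p of 0.0356. With the replicate number as a block, the log2 fold change over SMI was 1.02 (SE 0.08) and passed, with an edgeR adjusted p of 3.27e-13. This SE and p draw on a variance that edgeR shares over all genes, and not on the same-numbered pairs alone. The log2 ratios of CPM in those pairs were 1.25, 1.11 and 0.79. Without MDH2 IP replicate 2 or SMI replicate 3, the unblocked log2 fold change over SMI passed too, at 1.25 and 1.47 (edgeR adjusted p of 0.0434 and 0.0122). The call over IgG IP was lost without MDH2 IP replicate 1 or 3 or without any IgG IP library, with edgeR adjusted p-values between 0.0543 and 0.0999. Of all genes tested, 16.4% were higher in MDH2 IP than in SMI without the block and 27.3% with it, and 4.64% were higher than in IgG IP.

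Between the controls, the HSP90 mRNAs differed by less than the spread of the libraries. The log2 fold change of IgG IP over SMI was -0.20 (SE 0.38) for HSP90AA1, -0.06 (SE 0.20) for HSP90AB1 and 0.07 (SE 0.33) for HSP90B1, with edgeR adjusted p-values of 0.731, 0.840 and 0.897. In this comparison 16.4% of all genes were higher in IgG IP. The SMI and MDH2 IP comparisons share libraries, so the 3 sets of values are not independent. When only exon windows were summed, the log2 fold changes over SMI were 0.62 for HSP90AA1, 0.58 for HSP90AB1 and 1.16 for HSP90B1 (edgeR adjusted p of 0.299, 0.0235 and 0.0486), and HSP90AB1 and HSP90B1 passed the test. In the same sums the log2 fold changes over IgG IP were 0.76 for HSP90AA1, 0.56 for HSP90AB1 and 0.81 for HSP90B1, and none passed the test (edgeR adjusted p of 0.272, 0.246 and 0.263). The exon sums of all genes were scaled on their own. Their values are therefore not on the scale of the sums over all windows, and the fall does not measure what the introns contributed.

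**Figure D1:**
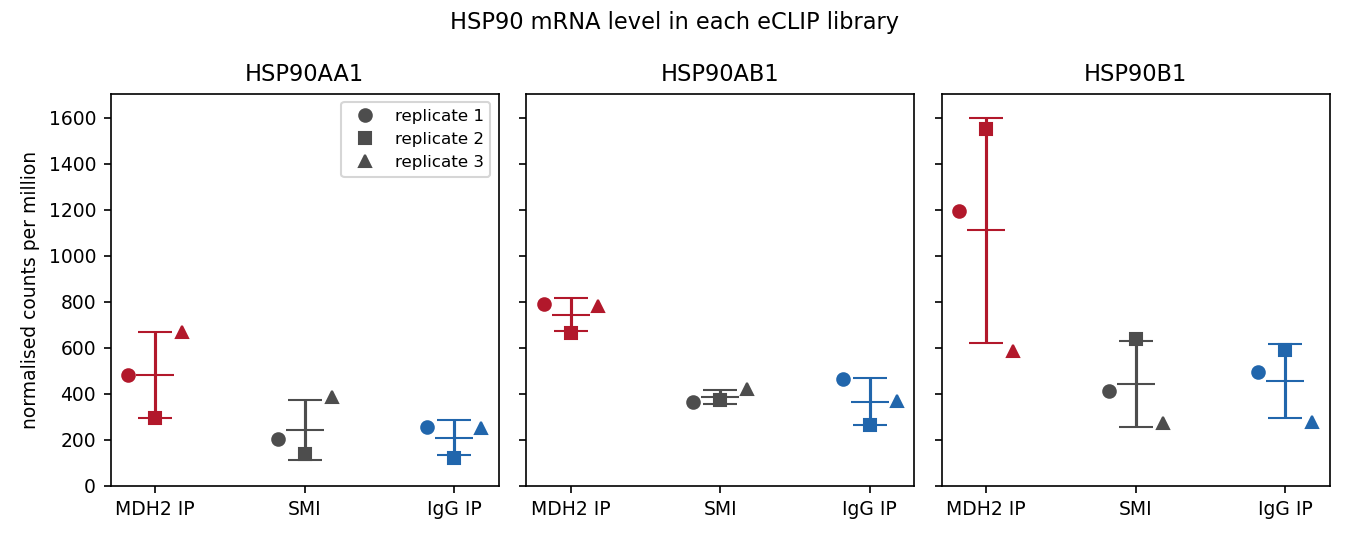
Normalised CPM of each HSP90 mRNA (vertical axis, linear, from 0) in the 3 libraries of each group, with the mean and SD of 3 libraries as bars and a marker shape for each replicate number. HSP90AB1 lies between 662 and 789 CPM in MDH2 IP and between 262 and 465 CPM in the controls, while HSP90AA1 and HSP90B1 spread widely with the replicate number in every group.

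The spread of HSP90AA1 and HSP90B1 followed the replicate number, in opposite directions. Replicate 3 was above replicate 2 for HSP90AA1 by 1.19 on the log2 scale in MDH2 IP, by 1.499 in SMI and by 1.05 in IgG IP. For HSP90B1 the same difference for MDH2 IP was -1.40, for SMI -1.23 and for IgG IP -1.08, and for HSP90AB1 it was 0.24, 0.18 and 0.48. These 2 replicates were set against each other after their values were seen, with 1 library of each number per group and therefore no test. Among the listed partners of the ER form (such as HSPA5, PDIA4 and CALR, chaperones and folding enzymes of the ER), 10 genes had at least 10 counts in all 9 libraries. Their median difference for MDH2 IP was -1.08, for SMI -1.098 and for IgG IP -1.12, with 1, 0 and 2 of 10 above 0. The 5 cytosolic HSP70 partners with as many counts (such as HSPA8 and HSPH1) were above 0 in all 3 groups, with medians of 1.19, 0.83 and 1.103. The 26 co-chaperones of the cytosolic forms moved less, with medians of 0.25, 0.30 and 0.30 and with 18, 19 and 18 of them above 0. For the 5 transcription factors of HSP90 genes the medians were -0.53, -0.52 and -0.19, with 1, 2 and 2 above 0. The median of all 11097 genes with such counts was 0.08, 0.04 and 0.04.

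Within a library, the ratio of one HSP90 mRNA to another passed no test between the groups when the replicate number was left aside. The log2 ratio of HSP90B1 to HSP90AB1 averaged 0.47 ± 0.83 (SD, n = 3) for MDH2 IP, 0.11 ± 0.71 for SMI and 0.29 ± 0.80 for IgG IP. The log2 ratio of HSP90AB1 to HSP90AA1 averaged 0.70 ± 0.48 for MDH2 IP, 0.81 ± 0.66 for SMI and 0.85 ± 0.29 for IgG IP. The 3 ratios were compared between each pair of groups, with all windows and with exon windows only. The smallest two-sided p of an exact permutation test was 0.5 and all adjusted p-values were 1, where 3 libraries against 3 cannot go below 0.1. Library by library, the log2 ratio of HSP90B1 to HSP90AB1 was 0.60, 1.23 and -0.41 for MDH2 IP and 0.18, 0.78 and -0.64 for SMI. That of HSP90B1 to HSP90AA1 was 1.31, 2.41 and -0.19 for MDH2 IP and 1.03, 2.24 and -0.51 for SMI. Both ratios were higher in MDH2 IP than in the SMI of the same number in all 3 cases, and this paired difference was not tested.

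Windows enriched over SMI were found on all 3 mRNAs, most of them on HSP90B1, and on HSP90AA1 at a rate below that of all windows. The word enriched stands here for windows with a log2 fold change of 1 or more whose adjusted p did not exceed 0.05, and 4.07% of all 51105 tested windows were so. On HSP90B1, 33 of 133 tested windows (24.8%) were enriched, on HSP90AB1 10 of 108 (9.26%) and on HSP90AA1 4 of 122 (3.28%), and none was lower by the same thresholds. With the replicate number as a block the counts were 65, 12 and 19, where 7.47% of all windows were enriched. With total counts in place of TMM scaling the counts were 106, 55 and 45, and the calls over all windows moved from 2080 higher and 5070 lower to 12171 higher and 2380 lower. The enriched windows merged into 11 regions on HSP90B1, 2 on HSP90AB1 and 3 on HSP90AA1. The counts depended on single libraries: they lay between 5 and 75 on HSP90B1 (5 without SMI replicate 1, 11 without SMI replicate 3, 10, 21 and 75 without MDH2 IP replicates 1, 2 and 3), between 3 and 12 on HSP90AB1 (3 without SMI replicate 1 and 5 without MDH2 IP replicate 1) and between 0 and 14 on HSP90AA1 (0 without MDH2 IP replicate 1 or 3 or without SMI replicate 1 or 2, 13 if MDH2 IP replicate 2 was left out and 14 if SMI replicate 3 was).

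**Figure D2:**
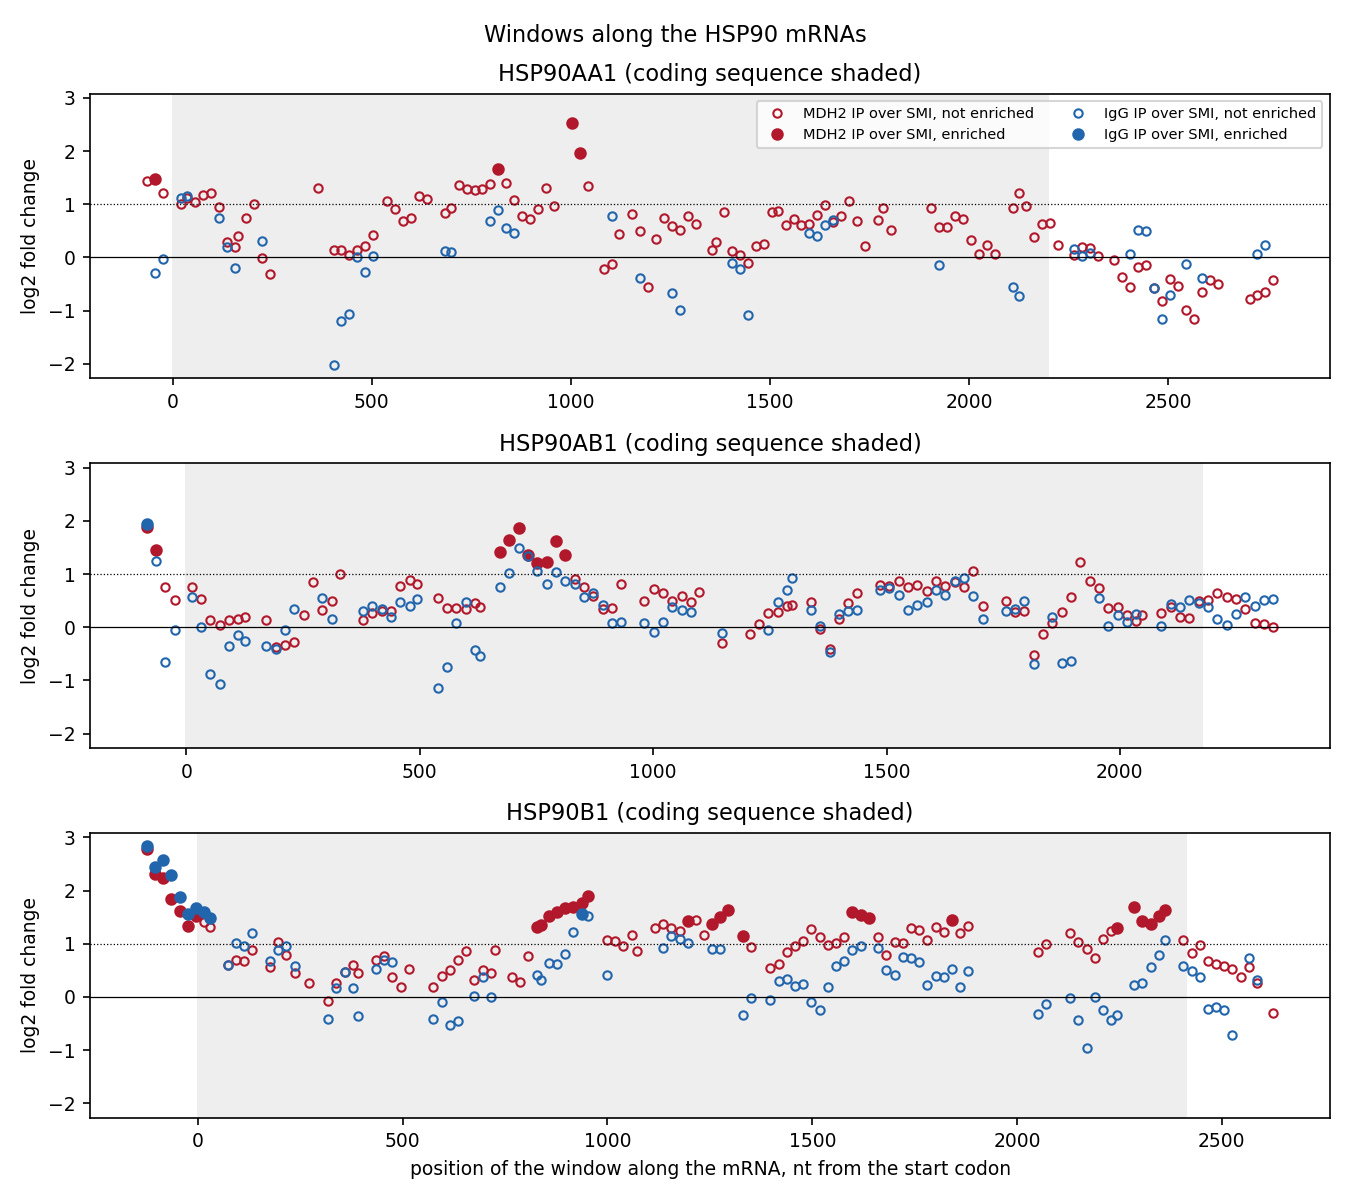
Log2 fold change (vertical axis) of each tested window along the mRNA, in nt from the start codon (horizontal axis), for MDH2 IP over SMI in red and IgG IP over SMI in blue, with filled points for enriched windows and the coding sequence shaded. HSP90B1 shows enriched windows in both comparisons in its 5′UTR, and all 3 mRNAs have filled red points in the part of the coding sequence that encodes the linker, HSP90AA1 a single one.

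The stretch that encodes the charged linker held enriched windows on each mRNA, on HSP90AA1 a single one, as did the 5′UTRs described further on. On HSP90AB1 it held 8 adjoining enriched windows at codons 217 to 280, with log2 fold changes over SMI between 1.21 and 1.86. The strongest of them, whose sequence is the upper line of the second pair above, had 105, 62 and 57 counts in MDH2 IP, 13, 18 and 23 in SMI and 9, 7 and 7 in IgG IP. All 3 MDH2 IP libraries were above all SMI libraries, and the log2 fold change was 1.86 with an edgeR adjusted p of 5.65e-04. On HSP90B1, 6 coding windows at codons 286 to 325 were enriched, with log2 fold changes between 1.53 and 1.90. The strongest, at chr12:103938418-103938459, had 99, 100 and 36 counts in MDH2 IP, 10, 31 and 14 in SMI and 15, 6 and 4 in IgG IP, with an edgeR adjusted p of 0.00293.

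On HSP90AA1 the linker window shown above had 105, 42 and 105 counts in MDH2 IP, 13, 17 and 43 in SMI and 11, 2 and 8 in IgG IP. In raw counts MDH2 IP replicate 2 was just below SMI replicate 3, and the log2 fold change was 1.66 with an edgeR adjusted p of 0.0240. The windows on both sides of it, which overlap with it, had log2 fold changes of 1.39 and 1.37 and were not called (edgeR adjusted p of 0.0888 and 0.0760). Across the 8 HSP90AA1 windows aligned with the enriched HSP90AB1 linker windows, the log2 fold change over SMI lay between 0.84 and 1.66.

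In the window fits, the linker windows were higher by less beside IgG IP, and none passed the test. They were chosen as enriched over SMI or, on HSP90AA1, as aligned with the enriched windows of HSP90AB1. Over IgG IP their median log2 fold change was 0.71 on 8 windows of HSP90AB1, 0.92 on 6 of HSP90B1 and 1.03 on 8 of HSP90AA1. The same windows had a median log2 fold change of IgG IP over SMI of 1.03 on HSP90AB1 and 1.02 on HSP90B1, and of 0.56 on the 5 of HSP90AA1 that had enough counts. Of the linker windows, 1 on HSP90B1 (codons 305 to 321) was itself enriched in IgG IP over SMI, with a log2 fold change of 1.55 and an edgeR adjusted p of 0.00637.

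**Figure D3:**
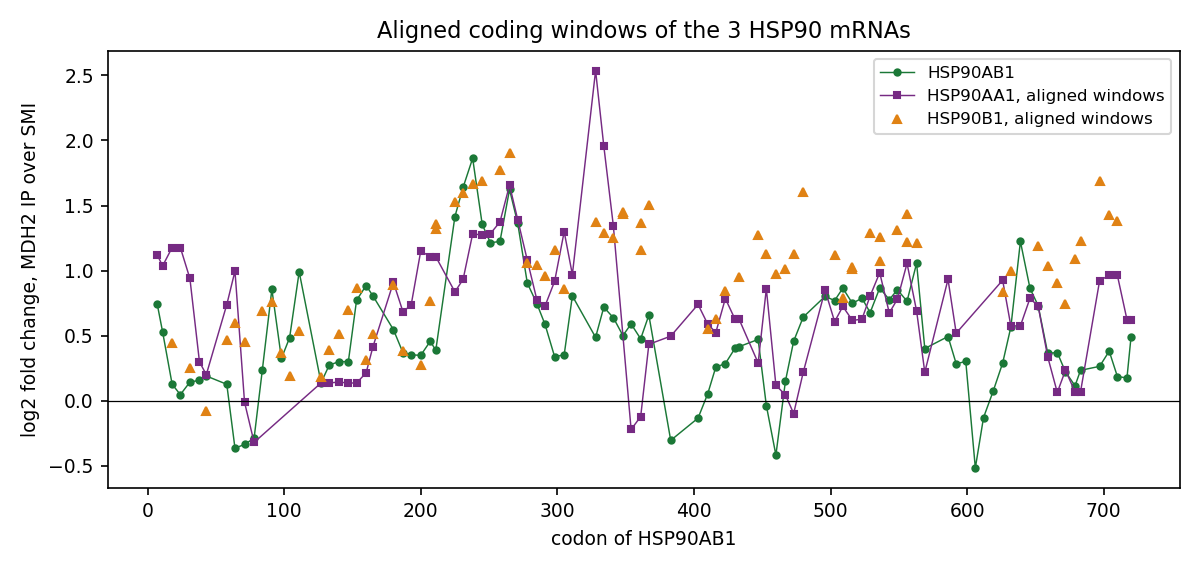
Log2 fold change of MDH2 IP over SMI (vertical axis) for coding windows of the 3 mRNAs, placed by the aligned codon of HSP90AB1 (horizontal axis). At the linker windows called enriched, the values lie between 1.21 and 1.86 on HSP90AB1 and between 1.53 and 1.90 on HSP90B1. The call itself keeps these at 1 or more. At the HSP90AA1 windows aligned with those of HSP90AB1, the values lie between 0.84 and 1.66.

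Aligned by codon, 86 windows of HSP90AB1 had a counterpart on HSP90AA1 within 10 nt, and the Pearson correlation of their log2 fold changes over SMI was 0.39. It was 0.52 over 75 windows between HSP90B1 and HSP90AB1 and 0.30 over 71 windows between HSP90B1 and HSP90AA1. These windows overlap along each mRNA and come from the same libraries, and similar sequences can share reads, so the values are descriptions. Over IgG IP the same correlations were -0.04, 0.02 and 0.27. The 8 enriched coding windows of HSP90AB1 overlap along the linker stretch and make up a single region. Their median purine content was 81.0%, against 54.6% in its 88 other coding windows. The 23 of HSP90B1, of which 6 lay in the linker and neighbours overlap, had 68.0% against 56.0% in 75. The 3 of HSP90AA1 did not follow this, with a median of 45.7% against 58.0% in 91, since only its linker window, at 90.0%, was rich in purines.

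The 5′UTR of HSP90B1 held the highest log2 fold change over SMI among the enriched windows of the 3 mRNAs. In the window fits it was as high in the IgG IP. All 7 of its tested windows were enriched in MDH2 IP over SMI, with log2 fold changes between 1.33 and 2.78. Together they cover 170 nt, at chr12:103930367-103930536, and so reach upstream of the mRNA model, whose 5′UTR has 106 nt. The tested window nearest to the 5′ end had 70, 89 and 29 counts in MDH2 IP, 4, 18 and 2 in SMI and 12, 12 and 3 in IgG IP. It stood 2.78 above SMI on the log2 scale but just 0.16 above IgG IP, and IgG IP itself stood 2.84 above SMI, with an edgeR adjusted p of 1.05e-05. The 7 windows had a median log2 fold change of 0.02 over IgG IP, with a range from -0.21 to 0.16. The window with the highest mean MDH2 IP level of HSP90B1 lay here too, with 228, 214 and 76 counts for MDH2 IP, 53, 64 and 28 for SMI and 25, 31 and 21 in IgG IP. Exon 1 as a whole, which holds these windows and was scaled in a separate fit, stood 0.72 above IgG IP (edgeR adjusted p of 0.155). The likeness to IgG IP therefore depends on the level of the fit, and the part of the scaling in this was not tested.

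The 5′ ends of the cytosolic mRNAs were also enriched over SMI. On HSP90AB1 both enriched 5′UTR windows lay in the first exon of the mRNA, and the stronger had 83, 61 and 50 counts in MDH2 IP, 15, 21 and 10 in SMI and 11, 6 and 10 in IgG IP. It stood 1.89 above SMI and 0.19 above IgG IP on the log2 scale, with IgG IP 1.95 above SMI, and it was the only window of HSP90AB1 enriched in IgG IP over SMI, of 98 tested. That call was lost (0 windows) without any SMI library or IgG IP replicate 3. On HSP90AA1 the enriched 5′UTR window had 73, 24 and 53 counts in MDH2 IP, 18, 10 and 19 in SMI and 5, 0 and 1 in IgG IP. Here MDH2 IP stood 1.48 above SMI and 2.06 above IgG IP on the log2 scale, the latter with an edgeR adjusted p of 0.416, and the log2 fold change of IgG IP over SMI was -0.30.

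At the other end of the HSP90B1 coding sequence, 5 adjoining windows at codons 755 to 794 were enriched. This stretch encodes the acidic tail of GRP94 that precedes its ER retention signal. Its strongest window, at chr12:103947311-103947360, had 164, 157 and 49 counts in MDH2 IP, 29, 48 and 22 in SMI and 4, 9 and 4 in IgG IP. On the log2 scale MDH2 IP stood 1.69 above SMI, with an edgeR adjusted p of 0.00473, and 1.72 above IgG IP, with an adjusted p of 0.186 by edgeR. IgG IP was near SMI in this window, with a log2 fold change of 0.22, unlike the 5′UTR of the same mRNA. Further enriched regions of HSP90B1 lay at codons 268 to 285, 391 to 408, 411 to 436, 437 to 453, 525 to 548, 606 to 623 and 743 to 754, and 1 more window lay in an exon that could not be placed on the genome. Of the enriched HSP90B1 windows, 2 were centred outside the mRNA model, in another exon or a retained intron. They were a window beside the linker and the strongest window of the region at codons 411 to 436, with a log2 fold change over SMI of 1.70. On HSP90AA1, 2 overlapping windows at codons 328 to 349 had the highest log2 fold change, 2.54, on few counts: 24, 11 and 19 in MDH2 IP, 2, 1 and 5 in SMI and 3, 0 and 2 in IgG IP. These are the counts of the stronger window, which reached the count minimum through the MDH2 IP libraries alone. Its entry into the test is therefore tied to its high value.

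Over IgG IP, no window of any HSP90 mRNA was enriched, of 89 tested on HSP90AA1, 106 on HSP90AB1 and 110 on HSP90B1. By edgeR, 26, 13 and 45 of these windows had an unadjusted two-sided p under 0.05, all of them with a log2 fold change above 0. The MDH2 IP libraries are deeper, and a window could pass the count filter through them alone, so this direction is not independent of the filter. The DESeq2 Wald test also called 0. Of all windows tested, 0.148% were enriched over IgG IP. Of the windows enriched over SMI, all 4 of HSP90AA1, all 10 of HSP90AB1 and 30 of 33 of HSP90B1 had a log2 fold change over IgG IP above 0, with medians of 0.92, 0.64 and 0.86. Among all tested windows of these mRNAs, 76 of 89, 96 of 106 and 101 of 110 were above 0. The enriched windows were chosen on the same MDH2 IP libraries, so their direction over IgG IP is no separate support. The IgG IP over SMI test called 10 of 102 windows of HSP90B1, 1 of 98 of HSP90AB1 and 0 of 47 of HSP90AA1, where 6.17% of all windows were enriched. For HSP90AA1, 3 of the 47 had an unadjusted edgeR p under 0.05. With any 1 library removed the count of HSP90B1 was between 3 and 9, with 3 without SMI replicate 1, 2 or 3 and 5 without IgG IP replicate 2.

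The windows with the most MDH2 IP counts were not all enriched. On HSP90AA1, 3 of the 5 highest lay in the linker and the others in the 3′UTR, where the higher had 103, 25 and 92 counts in MDH2 IP, 50, 34 and 90 in SMI and 20, 4 and 6 in IgG IP and a log2 fold change over SMI of 0.18. On HSP90AB1 the highest lay in the 3′UTR, with 153, 103 and 126 counts for MDH2 IP, 59, 74 and 98 for SMI and 20, 6 and 11 in IgG IP, and a log2 fold change of 0.58 over SMI. The others were a second 3′UTR window, the linker windows at codons 217 to 233 and 223 to 240, and the window at codons 528 to 544, at 0.87. On HSP90B1, 3 of the 5 lay in the 5′UTR and the others at codons 606 to 623 and 613 to 629.

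Windows were also compared with the rest of their own mRNA, which removes the change of the mRNA as a whole. In MDH2 IP over SMI, 5 windows of HSP90AB1 were above the rest, 1 at the 5′ end and 4, of which neighbours share sites, in the linker at codons 217 to 246 and 257 to 273. The relative log2 change was 1.36 for the 5′ window, with an edgeR adjusted p of 0.00311, and 1.34 for the strongest linker window, with an edgeR adjusted p of 0.00250. The window at codons 452 to 468 was below the rest, with a relative log2 change of -0.94 (edgeR adjusted p of 0.0464). No window of HSP90AA1 or HSP90B1 passed, while 6 and 4 had an unadjusted edgeR p under 0.05. With the replicate number as a block, 6 windows of HSP90AA1, 10 of HSP90AB1 and 5 of HSP90B1 were above the rest of their mRNA. Of all windows, 2.95% were above the rest of their gene without the block and 5.77% with it. Over IgG IP no HSP90 window passed, where 0.206% of all windows did, and 1, 2 and 0 had an unadjusted edgeR p under 0.05. In IgG IP over SMI, 4 windows of the HSP90B1 5′UTR and 1 of the HSP90AB1 5′UTR were above the rest of their mRNA, where 1.85% of all windows were.

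Summed by exon, MDH2 IP was higher than SMI over most of HSP90B1. In this test 14 of 17 exons of HSP90B1, 8 of 12 of HSP90AB1 and 4 of 9 of HSP90AA1 were higher and none was lower, where 9.2% of all exons and introns were higher. With the replicate number as a block, 11 of the 13 exons and introns tested on HSP90AA1 were higher, where 14.2% of all were. Over IgG IP, 11 of 16 exons of HSP90B1, 10 of 12 of HSP90AB1 and 6 of 9 of HSP90AA1 were higher, where 4.33% of all exons and introns were. Leaving out single libraries moved the counts of exons and introns together. Over SMI, HSP90B1 had 6 without SMI replicate 1 and 8 without MDH2 IP replicate 1, MDH2 IP replicate 2 or SMI replicate 3. HSP90AB1 had 6 without SMI replicate 1 and 7 without MDH2 IP replicate 1 or SMI replicate 2. HSP90AA1 had 2 without SMI replicate 1, 3 if MDH2 IP replicate 1 or 3 or else SMI replicate 2 was left out, 8 if MDH2 IP replicate 2 was and 10 if SMI replicate 3 was. Over IgG IP, HSP90B1 had 4 without MDH2 IP replicate 2 and 5 without MDH2 IP replicate 1, and HSP90AB1 had 3 without IgG IP replicate 2 and 6 without MDH2 IP replicate 1.

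**Figure D4:**
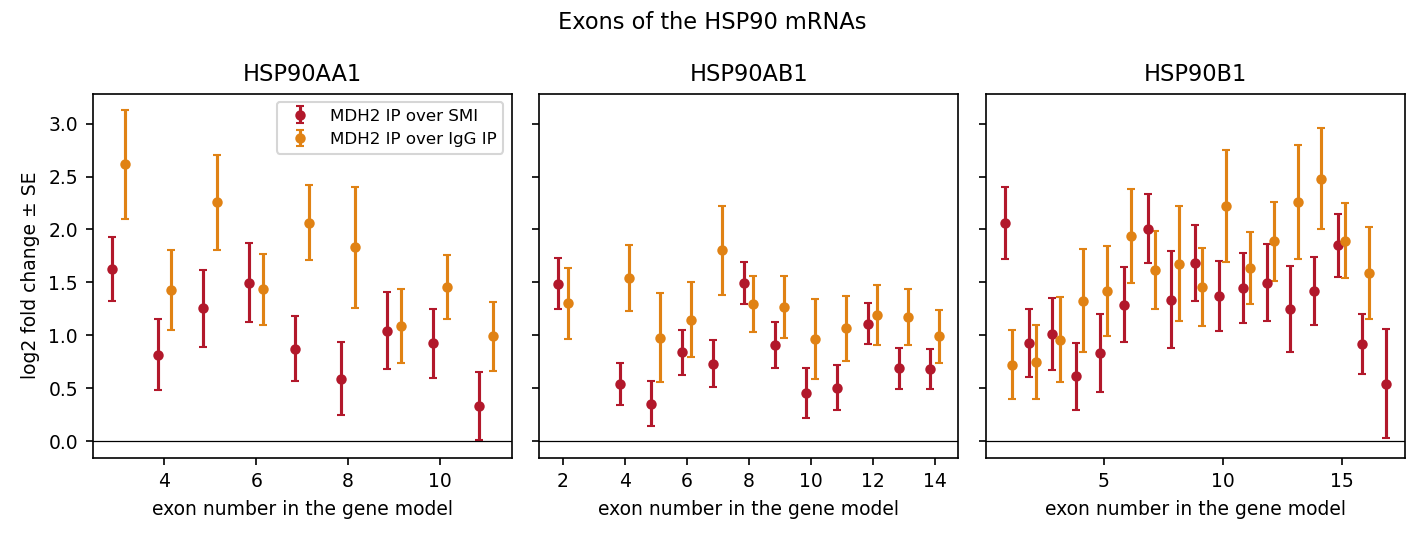
Log2 fold change with its SE (vertical axis) of each tested exon, by its number in the gene model of the files (horizontal axis), for MDH2 IP over SMI in red and over IgG IP in orange. Exon 1 of HSP90B1 is at 2.06 over SMI and 0.72 over IgG IP, and exon 14 is at 1.42 and 2.48.

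The exons at the extremes differed between the members. On HSP90B1 the highest was exon 1, with 1334, 1390 and 492 counts for MDH2 IP, 276, 405 and 149 for SMI and 170, 206 and 111 for IgG IP. On the log2 scale it stood 2.06 above SMI and 0.72 above IgG IP, and IgG IP stood 1.51 above SMI, where the edgeR adjusted p was 0.00515. The lowest was exon 17 of the gene model, at 0.54 on 7 to 34 counts per library. It had 0 counts in all 3 IgG IP libraries and was lower there than in SMI by the edgeR test (adjusted p of 0.0323). On HSP90AB1 the highest was exon 8 of the gene model, which encodes the linker, with 1301, 800 and 737 counts for MDH2 IP, 298, 338 and 477 for SMI and 168, 54 and 90 in IgG IP. All MDH2 IP libraries were above all others in raw counts, and its log2 fold changes of 1.49 over SMI and 1.29 over IgG IP both passed the test. The lowest was exon 5 at 0.36, with an edgeR adjusted p of 0.234.

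On HSP90AA1 the highest was exon 3 of the gene model, which is the first exon of the mRNA used here, with a log2 fold change of 1.63 over SMI and 2.62 over IgG IP. It had 203, 77 and 139 counts in MDH2 IP, 48, 42 and 59 in SMI and 15, 2 and 2 in IgG IP. The lowest was exon 11, which holds the 3′UTR, at 0.34 with an edgeR adjusted p of 0.477. Its 3′UTR windows had a median log2 fold change over SMI of -0.42, against 0.73 in the coding sequence, although none was called lower.

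The share of counts in each part of an mRNA followed the same differences. In HSP90AA1 the 3′UTR held 17.2%, 14.1% and 17.0% of the mRNA counts in MDH2 IP, 30.6%, 30.3% and 25.8% in SMI and 25.5%, 27.7% and 28.7% in IgG IP. The MDH2 IP libraries were below all control libraries. The mean share was 16.1% ± 1.74 (SD, n = 3) for MDH2 IP, 28.9% ± 2.67 for SMI and 27.3% ± 1.61 for IgG IP, with p = 0.1 by the exact permutation test against either control. In HSP90AB1 the 3′UTR share was 12.8% ± 1.79 for MDH2 IP, 14.3% ± 0.50 for SMI and 15.3% ± 2.40 for IgG IP, and the groups overlapped. In HSP90B1 the 5′UTR held 12.7% ± 1.16 for MDH2 IP, 7.63% ± 1.05 for SMI and 22.2% ± 8.76 for IgG IP, and the MDH2 IP libraries were above all SMI libraries but overlapped with IgG IP. The shares of the UTRs were compared after their values were seen.

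Introns of HSP90B1 took a smaller share of its counts in MDH2 IP. The share was 9.04%, 7.41% and 6.73% in MDH2 IP, 21.0%, 17.7% and 17.7% in SMI and 11.5%, 12.8% and 12.3% in IgG IP. The 3 groups did not overlap, and p was 0.1 by the exact permutation test for each pair of groups, the smallest that 3 libraries against 3 allow. None of its 12 tested introns was higher or lower over SMI, with a median log2 fold change of -0.03. In HSP90AB1 the intron share was 6.31% ± 1.28 for MDH2 IP, 6.34% ± 0.95 for SMI and 12.1% ± 3.78 for IgG IP, and in HSP90AA1 it was 4.09% ± 0.62, 2.99% ± 0.42 and 10.2% ± 6.48. On HSP90AB1, 3 of 9 tested introns were higher over SMI: intron 8 at 1.36, and introns 9 and 11 at 2.02 and 2.32 on at most 22 counts per library. On HSP90AA1 1 of 4 was higher, where 9.2% of all exons and introns were. Over IgG IP 0 introns were higher, of 3 tested on HSP90AA1, 8 on HSP90AB1 and 7 on HSP90B1. Intron 3 of the HSP90AA1 gene model had 66, 36 and 102 counts in MDH2 IP, 10, 9 and 25 in SMI and 19, 8 and 42 in IgG IP. It was higher than SMI in both IPs, with log2 fold changes of 2.46 and 3.01, and its log2 fold change of MDH2 IP over IgG IP was -0.39. Of all exons and introns, 8.31% were higher in IgG IP than in SMI.

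**Figure D5:**
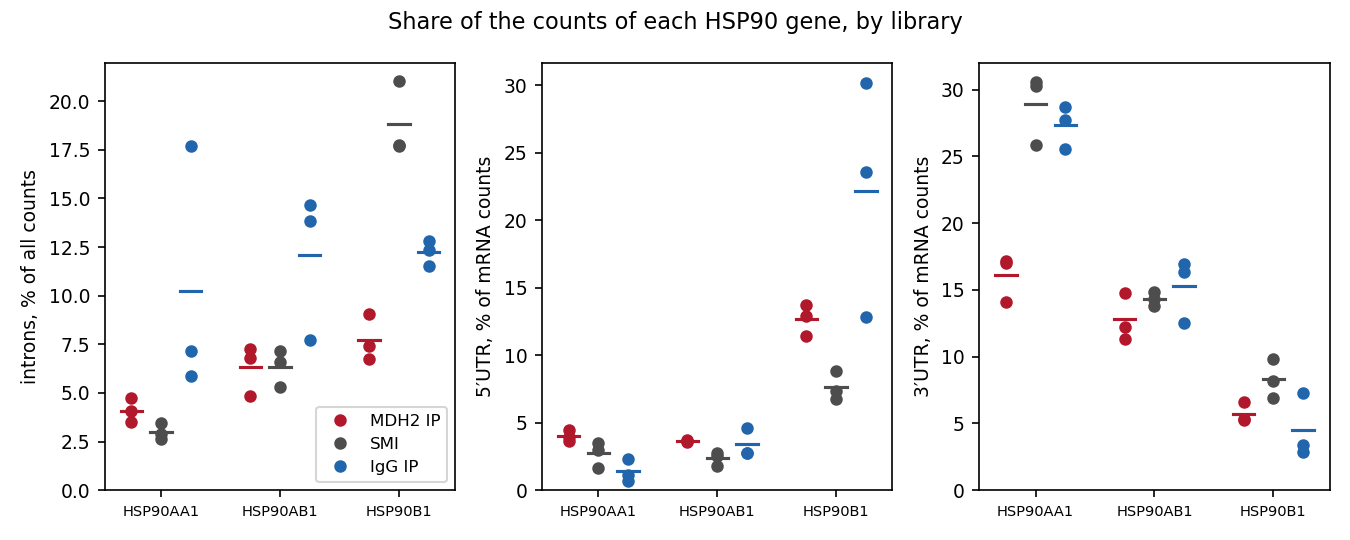
Share of the counts of each HSP90 gene (vertical axes, percent) in introns, in the 5′UTR and in the 3′UTR, with a point for each library and a line at the mean of 3 libraries. The HSP90B1 intron share is lowest in MDH2 IP and highest in SMI, and the HSP90AA1 3′UTR share is lower in MDH2 IP than in both controls.

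Genes that work with HSP90 were taken from a list of 53, of which 49 could be tested. Over SMI, 12 of the 49 were higher and 4 lower, where 2800 of all 17056 genes tested (16.4%) were higher and 3061 lower, and the median log2 fold change was 0.34 against -0.01 for all genes. Over IgG IP 4 were higher and 0 lower, where 719 of 15491 genes (4.64%) were higher and 1203 lower, with a median of 0.44 against 0.02. Among co-chaperones of the cytosolic forms, 9 of 27 were higher and 3 lower over SMI, beside the 16.4% of all genes that were higher. CDC37, which brings kinases to HSP90, was at 0.96 over SMI and 0.87 over IgG IP, both past the test. UNC45A, a myosin chaperone, was at 0.96 over SMI, AHSA2P at 1.02, FKBP8 at 0.72, STUB1, a ubiquitin ligase, at 0.73 and PIH1D1 at 0.65, all past the test over SMI and not over IgG IP. SUGT1, FNIP1 and FNIP2 fell by 0.81, 0.91 and 0.56 on the log2 scale over SMI. Of the transcription factors, HSF1, the main activator of heat shock genes, was at 0.61 over SMI and ATF6, an ER stress factor, at -0.86, and both passed the test. The calls over IgG IP also included CANX, an ER chaperone, at 0.74 and HSPA4 at 0.63. Of 11 partners of the ER form, 1 was higher over SMI, with a median of 0.77, and of 5 HSP70 partners 0 were. TRAP1, the mitochondrial HSP90, was at 0.29 over SMI and 0.10 over IgG IP and passed neither test. In IgG IP over SMI, 4 genes of the list were higher and 7 lower, where 2578 of all 15708 genes (16.4%) were higher and 1788 lower, with a median of -0.16 against -0.08 for all genes.

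Across the 9 libraries, the genes whose log2 CPM was most like that of HSP90AA1 were AHSA1, a co-chaperone that stimulates the HSP90 ATPase, with a Pearson correlation of 0.97, PRC1 with 0.97 and NOP16 with 0.97. For HSP90AB1 they were POLR1C with 0.99, TBRG4 with 0.99 and USF1 with 0.98, and for HSP90B1 ZZEF1 with 0.98, WDR91 with 0.97 and ANKZF1 with 0.97. They were the highest of 11097 genes, and the libraries share groups and replicate numbers.

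Reads with several alignments were kept by the authors, so counts can be shared between HSP90 genes and their pseudogenes. Counts on pseudogenes came to at most 1.097% of those of HSP90AA1, 1.51% of HSP90AB1 and 0.529% of HSP90B1 in any library. HSP90AB3P had 45, 46 and 25 counts in MDH2 IP, 3, 14 and 8 in SMI and 8, 5 and 0 in IgG IP, with a log2 fold change of 2.44 over SMI (edgeR adjusted p of 0.00825). HSP90B3P had 14, 16 and 10 counts in MDH2 IP and 0 in every other library. HSP90AB2P and HSP90AB4P had log2 fold changes over SMI of 0.39 and 0.81 and did not pass the test.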

How the data were processed

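The members and gene lists were chosen with earlier results of these data known. The 9 eCLIP libraries were processed by the authors with UMI-tools, cutadapt, STAR and htseq-clip on GRCh38 with GENCODE v23 genes, and the deposited values are raw counts of cross-link sites per window, after removal of PCR duplicates and without normalization. All columns were used. Counts were summed by window, by exon or intron and by gene, and features that reached 10 counts in 3 or more of the libraries of a comparison entered edgeR 4.0.16 under R 4.3.3 (TMM, quasi-likelihood test, Benjamini-Hochberg adjustment over all features). For windows the p was one-sided and corrected by a factor equal to how many tested windows overlapped. TMM factors were computed anew for each fit, so log2 fold changes of windows, exons and genes are not on the same scale. Windows were set against the rest of their gene with diffSpliceDGE. The SE is the log2 fold change over the root of F. Window numbers were matched to GENCODE v44 exons by rebuilding them from exon lengths. Of 79 exons and introns with counts, 1 was not placed and 1 each on HSP90AA1 and HSP90B1 was placed by its start only. Groups and replicate numbers are those of the labels. Same-numbered MDH2 IP and SMI libraries deviated together from their group means (correlations over 11097 genes of 0.32, 0.75 and 0.75), so the block was used as a paired fit there. For the IgG IP comparisons the lowest such correlation was 0.06 and 0.08. No replicates agreed within sampling noise (chi-square per degree of freedom of at least 6.7). Named genes were the members, pseudogenes with at least 10 counts in 3 libraries, up to 12 listed partners past a gene test by adjusted p, the enriched windows, the 5 windows with the most MDH2 IP counts, the exons with the highest and lowest change and the 3 genes most alike. Others named were chosen after their values were seen. The values of 1 listed partner are not reported here. Alternatives were DESeq2 1.42.0 (Wald test or size factors), total counts, other filters and thresholds, a fit of all 9 libraries, the block, windows that do not overlap, exon windows only, pseudogene counts added and leaving out each library. The edgeR tests of genes, of exons and introns and of windows, and diffSpliceDGE, were tried on data simulated from the MDH2 IP and SMI libraries. The simulation held no pairing of replicate numbers, and the block and DESeq2 fits were not tried on it.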

Additional observations from a re-analysis of the deposited data

How the results depend on the processing

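Over all alternatives, 290 values kept their direction and side of the threshold or lay within 1.5 times the count reported. The others are given here, with counts in the order named, and the cause was not tested. For HSP90AA1 over SMI the gene-level log2 fold change passed the test with the DESeq2 Wald test (0.99), with no count filter (0.94) and with the replicate block (1.02). Over IgG IP it did not pass in a fit of all 9 libraries (1.17), and with exon windows only neither HSP90AA1 (0.76), HSP90AB1 (0.56) nor HSP90B1 (0.81) passed. For IgG IP over SMI, where no member passed, the sign turned for HSP90AB1 with exon windows only (0.052) and for HSP90B1 with no count filter (-0.11) and with total counts as library size (-0.069). It also turned without SMI replicate 3 (HSP90AA1 0.32, HSP90AB1 0.0086, HSP90B1 -0.18) and without IgG IP replicate 2 (0.08, 0.12 and -0.17).

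Enriched windows over SMI on HSP90AA1 numbered 2 with the DESeq2 Wald test, 8 in a fit of all 9 libraries, 1 at a log2 fold change of at least 2, 19 with the replicate block, 45 with total counts and 16 with a two-sided p. Those on HSP90AB1 numbered 0 at a log2 fold change of at least 2 and 55 with total counts. Those on HSP90B1 numbered 50 in a fit of all 9 libraries, 3 at a log2 fold change of at least 2, 65 with the block, 106 with total counts and 65 with a two-sided p. Over IgG IP, HSP90AA1 had 2 with a count minimum of 3 and 4 with a two-sided p, and HSP90B1 had 9 with a count minimum of 3, 1 with the block, 4 with total counts and 8 with a two-sided p. In IgG IP over SMI, HSP90AB1 had 0 with a count minimum of 3 or a log2 fold change of at least 2, 5 with total counts and 3 with a two-sided p, and HSP90B1 had 4, 4, 17 and 16. With the replicate block, 6, 10 and 5 windows of HSP90AA1, HSP90AB1 and HSP90B1 were above the rest of their mRNA over SMI. The block changed no other gene-level call of the members.

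Exons and introns higher over SMI on HSP90AA1 numbered 9 with no count filter, 11 with the replicate block, 8 with total counts and 9 with windows that do not overlap. On HSP90AB1 they numbered 4 in a fit of all 9 libraries and 7 with no count filter, and on HSP90B1 9 in a fit of all 9 libraries. Over IgG IP, HSP90B1 had 17 with no count filter. In IgG IP over SMI, HSP90AB1 had 0 with no count filter and HSP90AA1 had 0 with windows that do not overlap.

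With each library left out in turn, the gene-level log2 fold change over SMI ranged from 0.66 to 1.47 for HSP90AA1, from 0.87 to 1.02 for HSP90AB1 and from 1.01 to 1.67 for HSP90B1. Over IgG IP it ranged from 0.97 to 1.54, from 0.88 to 1.28 and from 1.05 to 1.67, and for IgG IP over SMI from -0.50 to 0.32, from -0.27 to 0.12 and from -0.18 to 0.43. Enriched windows over SMI ranged from 0 to 14, from 3 to 12 and from 5 to 75, and in IgG IP over SMI from 0 to 1 on HSP90AB1 and from 3 to 9 on HSP90B1. Exons and introns higher over SMI ranged from 2 to 10, from 6 to 10 and from 6 to 16, over IgG IP from 4 to 8, from 3 to 12 and from 4 to 16, and in IgG IP over SMI from 0 to 1 on each mRNA.

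Total counts moved the median log2 fold change of all windows from 0.05 to 0.62 over SMI, from 0.15 to 0.40 over IgG IP and from -0.18 to 0.08 for IgG IP over SMI. That of all genes moved from 0.02 to 0.17 over IgG IP and from -0.08 to -0.22 for IgG IP over SMI. The IgG IP libraries are the shallowest, and the part of depth in the counts of windows called over IgG IP was not tested. Leaving out a library leaves 2 in its group.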
